A study of Homo sapiens with 6 samples.

Results

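Glucose-6-phosphate that does not continue down glycolysis can enter side branches, and 31 genes of the pentose phosphate, glycogen and hexosamine branches were compared between RH30 cells that carry the IκBα super repressor and RH30 vector cells. The genes were chosen by name, with earlier results of these data known. Each was read at its brightest transcript cluster, the unit in which the array reports a gene. Of the 31 genes, 27 had a cluster with a single gene symbol, among 22411 genes compared in all. RPE and STBD1 lay only on clusters with several symbols and were not given values, and GFPT2 and PGM3 were not analysed here. RH30 is an established line from a human alveolar rhabdomyosarcoma, a muscle-like sarcoma. IκBα SR is an IκBα that cannot be degraded on stimulation, so that classical NF-κB is kept out of the nucleus. IκBα SR cells (3 arrays) had been infected with retrovirus carrying the transgene in pBabe-puro, and the vector cells (3 arrays) with the empty vector, and both were stable lines grown in DMEM with serum. The sources used here do not say whether each line was a clone or a pool, and the comparison sets 1 line against another.

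The pentose phosphate branch oxidizes glucose-6-phosphate to make NADPH and ribose-5-phosphate, and its later enzymes pass carbon back to glycolysis. Glycogen is built from glucose-1-phosphate by way of UDP-glucose and is taken apart again by phosphorylases, and it is the main glucose store of muscle. The hexosamine branch joins fructose-6-phosphate with nitrogen from glutamine to make UDP-N-acetylglucosamine, the donor for glycoproteins, hyaluronan and the O-GlcNAc mark on proteins inside the cell.

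NFKBIA, the gene that the transgene carries, was 13.55, 13.74 and 13.57 in IκBα SR arrays, against 11.61, 11.66 and 11.58 in vector arrays, on the log2 scale of the deposited values. Muscle and rhabdomyosarcoma markers also differed: 5 of 10 measured were higher, 1 (MYOG) was lower (over all genes 9.76% were higher and 8.58% lower by the test given below), and their mean log2 value was between 9.28 and 9.46 in IκBα SR arrays and between 9.13 and 9.18 in vector arrays. Of 6 fibroblast markers 1 was higher and 3 were lower (mean 5.21 to 5.44 in IκBα SR arrays and 5.13 to 5.31 in vector arrays), with PDGFRA, DCN and FAP, the last one of those lower, on average below the median feature. Of 4 osteoblast markers 1 was higher and 1 lower (6.13 to 6.22 in IκBα SR arrays and 6.10 to 6.18 in vector arrays), with SP7 and IBSP below it. Of 5 leukocyte markers 1 was lower (4.36 to 4.44 in IκBα SR arrays and 4.60 to 4.67 in vector arrays) and of 6 markers of endothelium and epithelium 1 was lower (4.48 to 4.56 in IκBα SR arrays and 4.61 to 4.65 in vector arrays), with PTPRC, CD14 and LYZ of the leukocyte markers and PECAM1 (the lower one), CDH5, VWF and EPCAM on average below it. Their part in the differences below was not tested. With bulk RNA, fewer cells of a type and less RNA per cell cannot be told apart.

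Of the 27 measured genes, 7 were higher in IκBα SR cells and 6 were lower, at an adjusted p under 0.05 from limma with the Benjamini-Hochberg method over all genes. Over all genes, 9.76% were higher and 8.58% lower, together 18.3%. The measured genes were brighter than most, with 25 of 27 at or above the median gene of 5.13, and among genes at or above that level 34.2% passed the test. The share of the 27 that passed was 48.1%. In all 13 genes that passed, the arrays of the groups did not overlap, and with PRPS1 and GYS1 this held for 15 of 27, against 29.6% of all genes. The median log2 fold change of the 27 genes was -0.01, against 0.00 over all genes, while the median size of the change regardless of direction was 0.16 on the log2 scale, against 0.07 over all genes. The 0.07 and the 29.6% include dim genes and were not matched for level, so they do not set these brighter genes apart. The 34.2% was not matched for level either. It covers every gene at or above 5.13, whereas the mean of the 27 genes was between 9.71 and 9.79 over the arrays. The 48.1% therefore does not set these genes apart and is a description. After a further quantile normalization 5 of the 27 genes were higher and 7 lower, beside 2186 higher and 2425 lower over all genes. An exact permutation test of a single gene with 3 arrays against 3 cannot give a 2-sided p below 0.1.

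**Figure D1:**
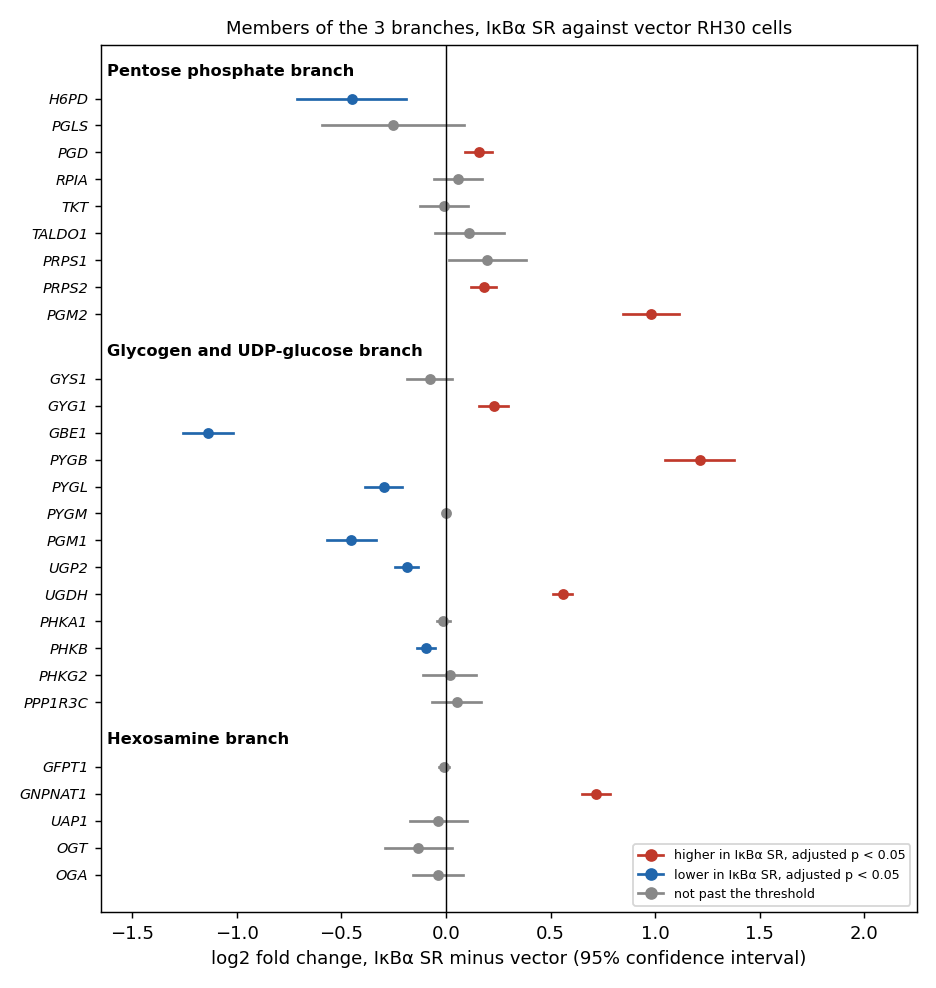
Log2 fold change (IκBα SR minus vector, horizontal axis) of the 27 measured genes by branch, with 95% confidence intervals from limma. Points in red were higher and points in blue lower in IκBα SR cells at an adjusted p under 0.05, and PYGB (1.21) and GBE1 (-1.14) lie farthest from 0.

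The stretches before the start sites of 6 genes are shown here. Of these, 4 (PYGB, GBE1, PGM2 and GNPNAT1) had the largest differences. The others, PGD and PYGL, passed the test and hold letters that match a loose pattern of an NF-κB site. Each runs from 150 bases before the start to 10 bases after it (RefSeq, GRCh38.p14). Capitals mark the letters GGG and TTCC with any 3 bases between them, ACGTG (the core of a hypoxia response element), CCAAT (the CCAAT box) and GGGCGG (the GC box) on either strand. The first, called κB letters here, are a loose pattern of an NF-κB site, so a match need not be such a site.
PYGB, chr20:25247935-25248094, plus strand: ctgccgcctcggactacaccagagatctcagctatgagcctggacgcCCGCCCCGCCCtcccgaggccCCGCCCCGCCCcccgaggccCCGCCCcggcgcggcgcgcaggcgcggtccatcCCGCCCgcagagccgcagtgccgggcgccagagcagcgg
GBE1, chr3:81761636-81761795, minus strand: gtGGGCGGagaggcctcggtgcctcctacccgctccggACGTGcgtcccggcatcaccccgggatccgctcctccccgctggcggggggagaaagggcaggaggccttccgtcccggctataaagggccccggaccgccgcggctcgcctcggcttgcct
PYGL, chr14:50944474-50944633, minus strand: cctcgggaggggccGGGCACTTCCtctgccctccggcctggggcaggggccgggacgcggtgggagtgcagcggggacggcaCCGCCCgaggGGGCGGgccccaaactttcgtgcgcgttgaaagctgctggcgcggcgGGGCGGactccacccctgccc
PGD, chr1:10398914-10399073, plus strand: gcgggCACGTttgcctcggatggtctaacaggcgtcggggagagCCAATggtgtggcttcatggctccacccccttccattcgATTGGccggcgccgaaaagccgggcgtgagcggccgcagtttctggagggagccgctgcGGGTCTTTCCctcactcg
PGM2, chr4:37826536-37826695, plus strand: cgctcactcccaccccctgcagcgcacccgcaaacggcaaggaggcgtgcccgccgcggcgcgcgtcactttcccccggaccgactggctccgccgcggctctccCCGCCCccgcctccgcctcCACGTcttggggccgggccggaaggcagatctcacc
GNPNAT1, chr14:52791598-52791757, minus strand: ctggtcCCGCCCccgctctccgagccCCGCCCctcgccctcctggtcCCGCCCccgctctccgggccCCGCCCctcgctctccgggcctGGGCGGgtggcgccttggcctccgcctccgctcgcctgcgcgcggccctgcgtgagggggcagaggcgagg
The κB letters stand at -136 to -127 in PYGL, which was lower in IκBα SR cells, and at -8 to 2, across the start, in PGD, which was higher. PYGB has 6 GC boxes, all on the minus strand and some of them overlapping, and GNPNAT1 has 5 GC boxes. GBE1 has 1 GC box and 1 ACGTG. Promoters of 300 bases were found for 26 of the 27 genes (PYGM had no entry). The κB letters were in 3 of these 26 (PGD, PYGL and GYS1), against 6.52% of 35116 promoters and 7.41% of promoters of genes at or above the median gene. ACGTG was in 9 of 26, against 21.4% of all promoters and 27.2% of those of genes at or above the median gene. CCAAT was in 10 of 26, against 34.6% and 38.2% of the same sets. The GC box was in 24 of 26, against 45.0% of all promoters and 70.3% of those of genes at or above the median gene. These letters are a description and not evidence of binding.

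The glycogen and UDP-glucose branch held the largest differences and went both ways. Of 13 measured genes, 3 were higher in IκBα SR cells (PYGB, UGDH and GYG1), 5 were lower (GBE1, PGM1, PYGL, UGP2 and PHKB) and 5 did not pass the test, with a median log2 fold change of -0.01. Of the 13 genes 61.5% passed, against 18.3% of all genes and 34.2% of genes at or above the median gene. Neither background was matched for level.

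Glycogen phosphorylases release glucose-1-phosphate from glycogen chains, and the 3 isoforms are named for brain (PYGB), liver (PYGL) and muscle (PYGM). PYGB (cluster TC20000168.hg.1) was 12.79, 12.83 and 12.79 in IκBα SR arrays, against 11.46, 11.67 and 11.63 in vector arrays. Every IκBα SR array was at least 1 log2 unit above every vector array. The log2 fold change was 1.21, that is, IκBα SR cells held 2.32 times the signal of vector cells (limma, adjusted p = 0.00054, standard error 0.06), and the call held in 17 of 17 alternative analyses. PYGL went the other way, at 9.53, 9.52 and 9.59 in IκBα SR arrays against 9.81, 9.90 and 9.83 in vector arrays. Its log2 fold change was -0.30 (limma, adjusted p = 0.0053, standard error 0.03). PYGM, the isoform of mature muscle, was listed at 4.24 on all 6 arrays, below the median of all features on every array (4.344 to 4.398), so these values cannot show a difference.

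GBE1 encodes the branching enzyme, which adds side chains to the growing glycogen molecule. GBE1 (cluster TC03001575.hg.1) was 8.42, 8.42 and 8.46 in IκBα SR arrays, against 9.60, 9.63 and 9.48 in vector arrays. It was the most strongly lowered of the 27 genes, with groups more than 1 log2 unit apart. The log2 fold change was -1.14, that is, vector cells held 2.20 times the signal of IκBα SR cells (limma, adjusted p = 0.00028, standard error 0.05), and the call held in 17 of 17 alternatives. PYGB and GBE1 were 2 of the 27 genes past the test with a change of at least 2-fold, as were 2.3% of all genes, dim ones included.

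GYG1 encodes glycogenin, the protein primer on which a glycogen particle starts. It was 8.29, 8.31 and 8.29 in IκBα SR arrays, against 8.05, 8.04 and 8.12 in vector arrays, a log2 fold change of 0.23 (limma, adjusted p = 0.0053). GYS1, the glycogen synthase outside the liver, was 10.55, 10.67 and 10.69 in IκBα SR arrays and 10.70, 10.72 and 10.73 in vector arrays. The groups of GYS1 lay close to each other without overlapping, and its log2 fold change of -0.08 did not pass the test (limma, adjusted p = 0.35, 95% confidence interval -0.19 to 0.03). So the primer and the brain phosphorylase were higher, the branching enzyme was lower, and the chain-lengthening synthase did not pass the test.

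PGM1 and UGP2, genes of enzymes on the way from glucose-6-phosphate to UDP-glucose, were lower. PGM1, which interconverts glucose-6-phosphate and glucose-1-phosphate, was listed at 8.38 on all 3 IκBα SR arrays, against 8.74, 8.85 and 8.90 in vector arrays, a log2 fold change of -0.45 (limma, adjusted p = 0.0037, standard error 0.05). UGP2, which makes UDP-glucose from glucose-1-phosphate, was listed at 9.94 on all 3 IκBα SR arrays, against 10.17, 10.10 and 10.11 in vector arrays, a log2 fold change of -0.19 (limma, adjusted p = 0.0043, standard error 0.02). Both genes had identical values within IκBα SR cells, as had 6147 of the 22411 genes within a group. Their error therefore rests on the vector arrays and on the spread shared across genes. That shared spread includes 1563 genes identical on all arrays and is small, with a standard error of 0.0046 for PYGM. It therefore does not widen the errors of PGM1 and UGP2, which may be too small. UGDH uses the same UDP-glucose to make UDP-glucuronate, a building block of hyaluronan and proteoglycans, and went the other way. It was 12.13, 12.13 and 12.14 in IκBα SR arrays, against 11.59, 11.60 and 11.54 in vector arrays, a log2 fold change of 0.56 (limma, adjusted p = 0.00015, standard error 0.02).

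Among the regulators of glycogen breakdown and synthesis the differences were small. PHKB, the beta subunit of the phosphorylase kinase that activates phosphorylases, was 10.91, 10.89 and 10.91 in IκBα SR arrays against 11.02, 10.97 and 10.99 in vector arrays. Its log2 fold change of -0.09 passed the test (limma, adjusted p = 0.021) but not without any 1 of the 3 IκBα SR arrays or without vector replicate 3 (adjusted p = 0.068 without IκBα SR replicate 1, 0.076 without replicate 2, 0.072 without replicate 3 and 0.058 without vector replicate 3, all from limma), nor with arrays centered on their medians (limma, adjusted p = 0.13). The catalytic subunit gene PHKG2 (0.02) and PPP1R3C (0.05), which brings protein phosphatase 1 to glycogen, did not pass the test. PHKA1, the alpha subunit of muscle, had a mean of 3.62 in IκBα SR arrays and 3.63 in vector arrays, below the median feature of every array.

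**Figure D2:**
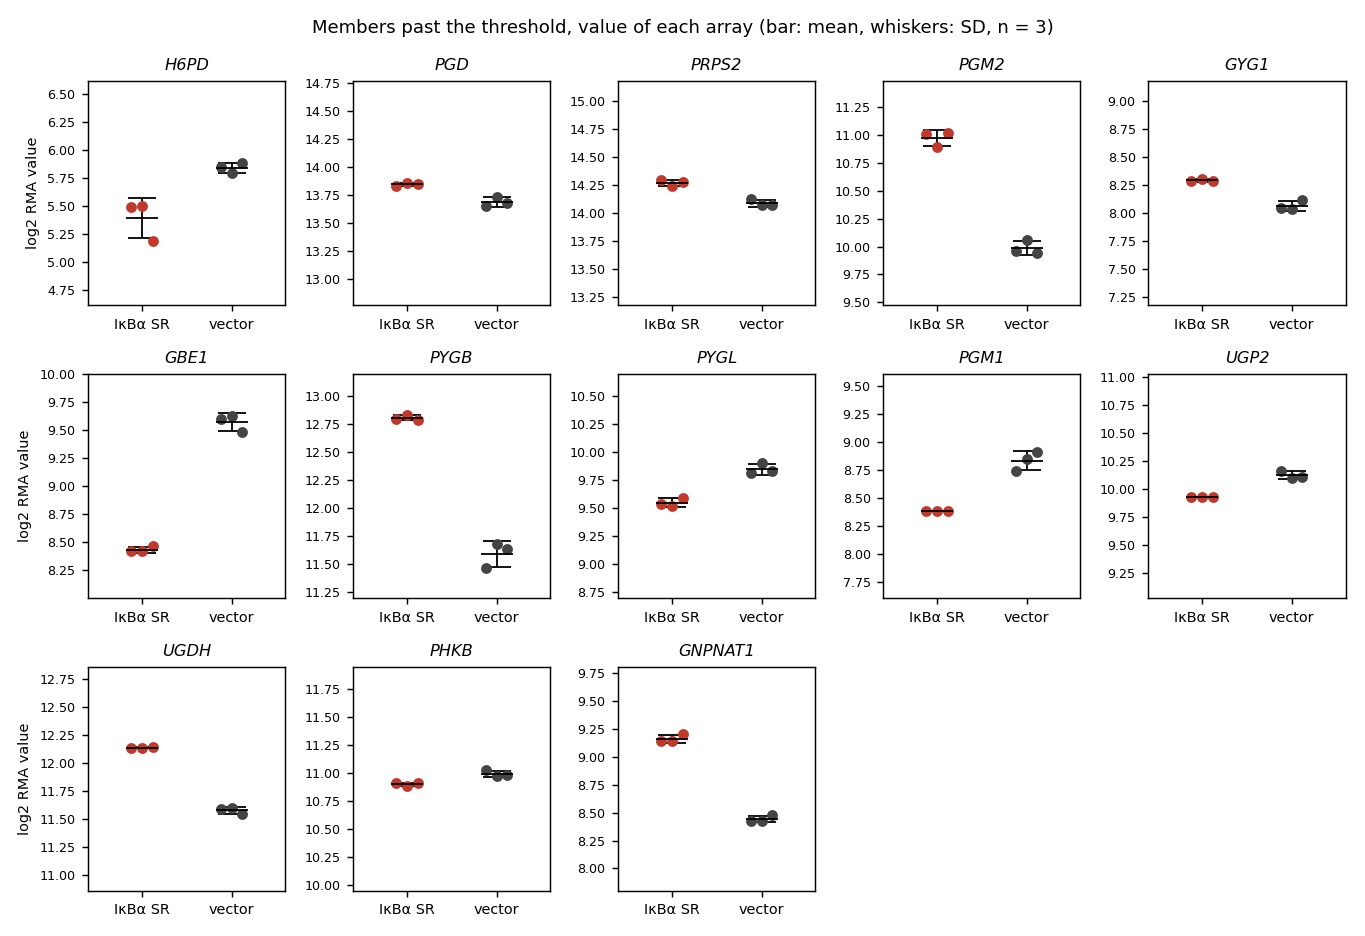
Log2 RMA value of each array (vertical axis, every panel spanning the same 2 log2 units) for the 13 genes that passed the test, with IκBα SR arrays left in red and vector arrays right in grey, and bars for the mean and SD of 3 arrays. No panel has overlapping groups, and the gaps run from PYGB and GBE1, the widest, to PHKB, the narrowest.

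In the pentose phosphate branch 3 of 9 measured genes were higher in IκBα SR cells (PGM2, PRPS2 and PGD), 1 was lower (H6PD) and 5 did not pass the test. Of the 9 genes 44.4% passed, against 18.3% of all genes and 34.2% of genes at or above the median gene, neither matched for level. The median log2 fold change was 0.11, and 0.06 after a further quantile normalization.

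In the oxidative steps, PGD encodes 6-phosphogluconate dehydrogenase, which makes NADPH and ribulose-5-phosphate. PGD was 13.83, 13.86 and 13.85 in IκBα SR arrays, against 13.65, 13.74 and 13.68 in vector arrays, a log2 fold change of 0.16 (limma, adjusted p = 0.015). This small difference did not pass after a further quantile normalization (0.10, adjusted p = 0.32 from limma), nor without IκBα SR replicate 1 (adjusted p = 0.051), 2 (0.067) or 3 (0.068) or vector replicate 3 (0.060), all from limma. H6PD encodes an enzyme that carries out the same kind of oxidation inside the endoplasmic reticulum. H6PD was 5.49, 5.50 and 5.19 in IκBα SR arrays, against 5.85, 5.80 and 5.88 in vector arrays, a log2 fold change of -0.45 (limma, adjusted p = 0.041, standard error 0.10). IκBα SR replicate 3 lay farthest down, and the level was little above the median gene of 5.13. The call of H6PD was lost without IκBα SR replicate 1 (adjusted p = 0.078) or 2 (0.076) and without vector replicate 1 (0.13), 2 (0.11) or 3 (0.13), all from limma, while the log2 fold change ran from -0.52 to -0.35 over 17 alternatives. PGLS, which opens the lactone between these dehydrogenase steps, had a log2 fold change of -0.25 and was not called (limma, adjusted p = 0.33, 95% confidence interval -0.59 to 0.08). Its value rested on single arrays, with -0.38 without vector replicate 1, which passed (limma, adjusted p = 0.038), and -0.15 without vector replicate 2 (limma, adjusted p = 0.50).

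Of the genes that interconvert sugar phosphates without oxidation, RPIA, TKT and TALDO1 did not pass the test, while PGM2, given below, did. RPIA, which isomerizes ribulose-5-phosphate to ribose-5-phosphate, had a log2 fold change of 0.06 (95% confidence interval -0.06 to 0.17). TKT, the transketolase, had one of -0.01 (-0.12 to 0.11), and TALDO1, the transaldolase, one of 0.11 (-0.05 to 0.28). These intervals leave room for changes of up to 0.28 on the log2 scale.

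Ribose-5-phosphate is made into PRPP, the start of nucleotide synthesis, by the PRPP synthetases. PRPS2 was 14.29, 14.24 and 14.27 in IκBα SR arrays, against 14.12, 14.07 and 14.07 in vector arrays, a log2 fold change of 0.18 (limma, adjusted p = 0.0068, standard error 0.02). After a further quantile normalization it was 0.13 and did not pass (limma, adjusted p = 0.086). PRPS1 was 12.35, 12.40 and 12.29 in IκBα SR arrays and 12.02, 12.17 and 12.25 in vector arrays. Its groups did not overlap, but its log2 fold change of 0.20 did not pass the test (limma, adjusted p = 0.16), and its vector arrays were spread more widely than those of PRPS2.

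PGM2 is named as a phosphoglucomutase and acts largely on pentoses, moving phosphate between ribose-1-phosphate and ribose-5-phosphate. PGM2 (cluster TC04000213.hg.1) was 11.00, 10.89 and 11.02 in IκBα SR arrays, against 9.96, 10.06 and 9.94 in vector arrays. The log2 fold change was 0.98, that is, IκBα SR cells held 1.98 times the signal of vector cells (limma, adjusted p = 0.00055, standard error 0.05), and the call held in 17 of 17 alternatives. It was the largest difference of the branch.

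In the hexosamine branch 1 of 5 measured genes was higher in IκBα SR cells, none was lower and 4 did not pass the test, with a median log2 fold change of -0.04. That share of 20% was near the 18.3% of all genes and below the 34.2% of genes at or above the median gene. The gene that passed was GNPNAT1, which acetylates glucosamine-6-phosphate. GNPNAT1 (cluster TC14001142.hg.1) was 9.13, 9.14 and 9.20 in IκBα SR arrays, against 8.43, 8.42 and 8.48 in vector arrays. The log2 fold change was 0.72, that is, IκBα SR cells held 1.65 times the signal of vector cells (limma, adjusted p = 0.00022, standard error 0.03), and the call held in 17 of 17 alternatives. GFPT1 before it and UAP1 after it did not pass. GFPT1, the glutamine-using enzyme that sets the pace of the branch, was listed at 13.16 on 5 of the 6 arrays and at 13.13 in IκBα SR replicate 2 (log2 fold change -0.01, 95% confidence interval -0.03 to 0.02). UAP1, which makes UDP-N-acetylglucosamine in the last step, was 11.00, 11.03 and 11.02 in IκBα SR arrays and 11.06, 11.14 and 10.95 in vector arrays (log2 fold change -0.04, 95% confidence interval -0.17 to 0.10).

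The O-GlcNAc mark is added to proteins by OGT and removed by the enzyme of OGA, the current name of MGEA5. OGT was 12.15, 12.05 and 12.07 in IκBα SR arrays and 12.27, 12.28 and 12.11 in vector arrays, groups that overlapped. Its log2 fold change was -0.13 (limma, adjusted p = 0.28, 95% confidence interval -0.29 to 0.03), and after a further quantile normalization it was -0.20 and passed the test (limma, adjusted p = 0.022). OGA had a log2 fold change of -0.04 (95% confidence interval -0.16 to 0.08).

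Several of the genes lie in chromosome stretches where many neighbors also differed, so each gene was set beside the 10 nearest measured protein-coding genes on each side, among genes at or above the median level. UGDH, on chromosome 4, had a log2 fold change of 0.56, and its 20 neighbors had a median of 0.57, with 16 higher and 1 lower. It thus lay at the level of its surroundings. PHKB likewise had -0.09 beside a neighbor median of -0.10. PGM1 had -0.45 beside a neighbor median of -0.23, just above their lower quartile of -0.47, with 9 of 20 lower and none higher. Other genes lay outside the quartiles of their neighbors. PYGB, on chromosome 20, had 1.21 beside a median of 0.36 (quartiles 0.15 and 0.56, with 12 of 20 higher and none lower). PGM2, on chromosome 4, had 0.98 beside a median of 0.34 (quartiles -0.06 and 0.59). GNPNAT1, on chromosome 14, had 0.72 beside a median of 0.27 (quartiles 0.14 and 0.38). These 3 genes were therefore above neighbors that were themselves shifted upward. GBE1, on chromosome 3, had -1.14 beside a median of 0.10 (quartiles -0.07 and 0.38). PYGL, on chromosome 14, had -0.30 beside a median of 0.29 (quartiles 0.18 and 0.41), with 11 of its 20 neighbors higher and 1 lower. H6PD, PGD, PRPS2, GYG1 and UGP2 had neighbor medians between -0.01 and 0.08. PRPS2 (0.18) and GYG1 (0.23) lay within the quartiles of their neighbors (-0.10 and 0.25 for PRPS2, -0.11 and 0.27 for GYG1). H6PD, PGD and UGP2 lay outside theirs. PYGL and GNPNAT1 count among each other's neighbors. DNA was not analysed here, and the part of chromosome position in these differences was not tested.

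**Figure D3:**
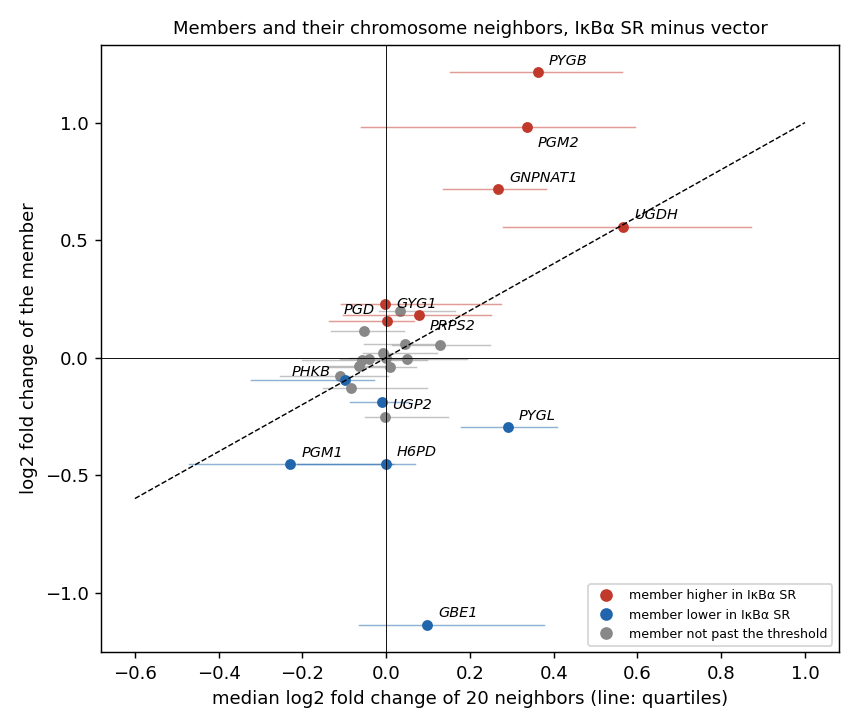
Log2 fold change of each of the 27 genes (vertical axis, IκBα SR minus vector) against the median log2 fold change of its 20 nearest measured protein-coding neighbors (horizontal axis, thin lines for quartiles), with the dashed line marking equal values. UGDH (0.56 beside 0.57) lies on the line, whereas PYGB, PGM2 and GNPNAT1 lie above it and GBE1 and PYGL below.

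Beyond the 27 genes, 42 other genes of the same branches were measured of 47 listed, of which 7 were higher in IκBα SR cells and 3 were lower. Over all genes the shares were 9.76% higher and 8.58% lower, and 34.2% of genes at or above the median gene passed in either direction, so these counts do not set the 42 genes apart. Around the pentose phosphate branch 1 of 9 passed. This was PRPSAP1, a regulatory partner of the PRPP synthetases, at 6.82, 6.83 and 6.83 in IκBα SR arrays against 7.05, 7.04 and 7.01 in vector arrays (log2 fold change -0.20 by limma, adjusted p = 0.0011). Its 20 neighbors on chromosome 17 had a median of -0.29, with 9 lower and none higher, so it lay within their quartiles of -0.43 and -0.12. PRPSAP2, the second such partner, had a log2 fold change of 0.15 with groups that did not overlap and was not called (limma, adjusted p = 0.21).

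Around glycogen and UDP-glucose, 3 of 20 genes were higher and 2 were lower. This share of 25% lay between the 18.3% of all genes and the 34.2% of genes at or above the median gene. PGM2L1, a relative of PGM2 that makes glucose-1,6-bisphosphate, was 10.37, 10.27 and 10.36 in IκBα SR arrays against 8.40, 8.58 and 8.64 in vector arrays. Its log2 fold change of 1.80 (limma, adjusted p = 0.000305) stood beside a median of 1.71 among its 20 neighbors on chromosome 11, of which 19 were higher. PGM5, a relative found at muscle cell junctions, was 9.23, 8.98 and 9.08 in IκBα SR arrays against 8.30, 8.34 and 8.25 in vector arrays (log2 fold change 0.80 by limma, adjusted p = 0.0028), beside a neighbor median of -0.15. GYG2, the second glycogenin gene, was 8.31, 8.38 and 8.38 in IκBα SR arrays and listed at 8.001 on all 3 vector arrays (log2 fold change 0.35 by limma, adjusted p = 0.0010), beside a neighbor median of -0.16. Both glycogenin genes were therefore higher. GAA, which encodes the lysosomal enzyme that digests glycogen, was 5.73, 5.62 and 5.62 in IκBα SR arrays against 6.77, 6.84 and 6.70 in vector arrays. Its log2 fold change was -1.11 (limma, adjusted p = 0.00037) beside a neighbor median of -0.21. PPP1R3E, another glycogen-targeting subunit of protein phosphatase 1, had a log2 fold change of -0.10 (limma, adjusted p = 0.035) beside a neighbor median of -0.05. Its call was lost without any 1 of the IκBα SR arrays or without vector replicate 2 or 3, with adjusted p from limma between 0.089 and 0.12. GSK3A, a kinase that inhibits glycogen synthase, had one of -0.41 and was not called (limma, adjusted p = 0.17).

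Among other hexosamine, sialic acid and hyaluronan genes, 4 of 13 were higher and none was lower, and 12 of the 13 were at or above the median gene. The share that passed was 30.8%, below the 34.2% of all genes at or above that level. HAS2, the hyaluronan synthase that joins UDP-glucuronate and UDP-N-acetylglucosamine, was 12.43, 12.54 and 12.36 in IκBα SR arrays against 11.85, 11.85 and 11.78 in vector arrays. Its log2 fold change was 0.61 (limma, adjusted p = 0.0026) beside a neighbor median of 0.07. UGDH, which makes one substrate of HAS2, was also higher, but at the level of its chromosome neighbors (0.56 beside a median of 0.57). GFPT1 and UAP1, on the way to the other substrate, did not pass, and a link between HAS2 and these genes was not tested. CMAS, which activates sialic acid for transfer to glycoproteins, was 10.87, 10.68 and 11.12 in IκBα SR arrays against 9.97, 10.19 and 10.07 in vector arrays (log2 fold change 0.81 by limma, adjusted p = 0.017). Its 20 neighbors on chromosome 12 had a median of 0.77, with 15 higher. The call of CMAS was lost without IκBα SR replicate 1 (limma, adjusted p = 0.066) and without vector replicate 1 (0.064) or 3 (0.065). NANP, which removes the phosphate in sialic acid synthesis, had a log2 fold change of 0.23 (limma, adjusted p = 0.041) beside a neighbor median of 0.37, and its call was lost without any 1 array but vector replicate 3 (limma, adjusted p between 0.090 and 0.14). EOGT, which adds N-acetylglucosamine to proteins outside the cell, had a log2 fold change of 0.15 (limma, adjusted p = 0.014) beside a neighbor median of 0.31, and its call was lost without any 1 of the IκBα SR arrays (limma, adjusted p between 0.053 and 0.055) and after a further quantile normalization (0.09, adjusted p = 0.11).

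**Figure D4:**
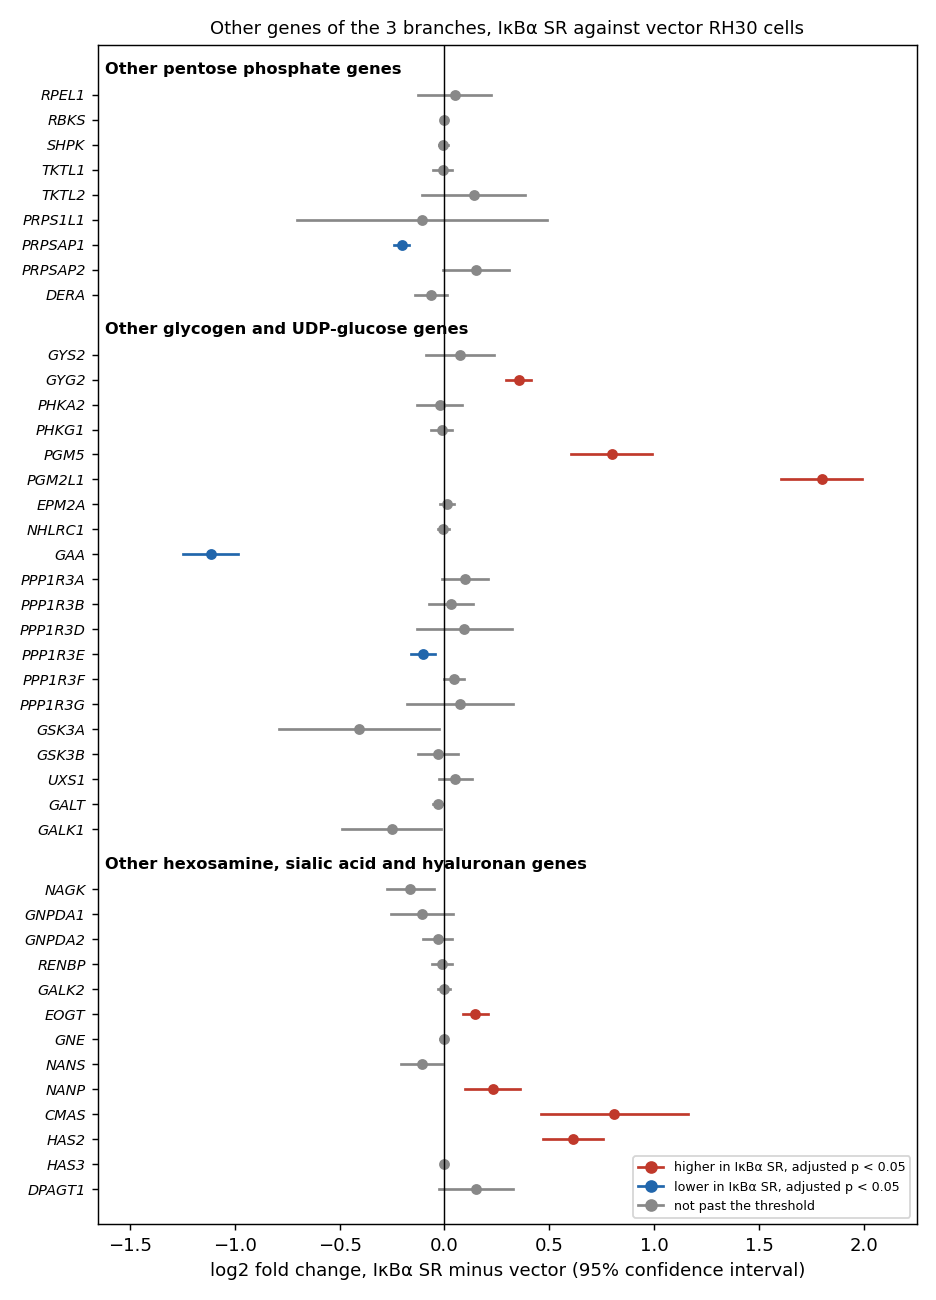
Log2 fold change (IκBα SR minus vector, horizontal axis) of the 42 other measured genes of the 3 branches, with 95% confidence intervals from limma. Points in red (7 genes) were higher and points in blue (3 genes) lower in IκBα SR cells, and PGM2L1 (1.80) and GAA (-1.11) lie farthest from 0.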

How the data were processed

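RNA from 6 cultures was hybridized to the Affymetrix Human Transcriptome Array. The design text names triplicate cultures of each group. The deposited values are log2 values that the authors made with RMA, which corrects background, normalizes between arrays and summarizes probes, in the Expression Console. The sources used here give neither versions nor the build of the array annotation, and scanner files were not used here. Of 70523 features, 23781 had 1 gene symbol, updated through RefSeq (GRCh38.p14), which left 22411 genes at their brightest cluster.

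IκBα SR minus vector was tested in R (version 4.3.3) by limma (version 3.58.1, functions lmFit and eBayes), with Benjamini-Hochberg adjustment over all 22411 genes, no filter on level and a threshold of 0.05. The number of arrays limits the precision. The procedure was checked on simulated data. Named genes are all members, and of the other listed genes those past the threshold, apart from GSK3A and PRPSAP2, which were chosen after their values were seen. The members and lists were chosen with earlier results of these data known. The 17 alternatives were another normalization or centering, a filter on dim genes, other choices of cluster, variance model, weights and test, a fold threshold, the replicate block, genes with identical values left out, and each array left out.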

Additional observations from a re-analysis of the deposited data

How the results depend on the processing

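Leaving out genes with identical values within a group was chosen after seeing the data, and the other 16 alternatives were planned. Of the 13 genes that passed the test, none changed direction in any alternative run, and PYGB, GBE1, PGM2 and GNPNAT1 passed in all 17. Not all of the 17 could have changed these calls. Each measured member had a single cluster, so other choices of cluster left its log2 fold change as it was. PYGB, GBE1, PGM2 and GNPNAT1 already differed by more than 1.5-fold, so the fold threshold could not drop them. After a further quantile normalization 1 pentose phosphate gene was higher and 1 hexosamine gene (OGT) was lower, the medians of these branches were 0.0581 and -0.0729, and RPIA turned to -0.00043. Requiring at least 1.5-fold, which is stricter by construction, left 3 genes higher and 1 lower, of which 1 higher and 0 lower in the pentose phosphate branch and 1 higher and 1 lower in the glycogen and UDP-glucose branch. Over all genes it left 820 higher and 618 lower, against 2188 and 1922 in the main test. Without genes identical in a group, PGM1 and UGP2 were not tested and PHKB did not pass, so 3 genes were lower, 2 of them in the glycogen and UDP-glucose branch, whose median was 0.0178. Without dim genes that median was -0.0777, as PYGM and PHKA1 were left out. In the methods' t-test with Benjamini-Hochberg adjustment 0 pentose phosphate genes were lower (H6PD, adjusted p = 0.068). With array weights TKT was 0.0163. Without each array in turn, 6 to 7 genes were higher and 4 to 6 lower, with 0 to 1 lower in the pentose phosphate branch. Over all genes 1629 to 2010 were higher and 1360 to 1781 lower in these runs. The medians then ran from 0.0556 to 0.15 in the pentose phosphate branch and from -0.0336 to -0.0005 in the hexosamine branch. TKT ran from -0.0456 to 0.0345, PHKG2 from -0.0173 to 0.0557 and UAP1 from -0.0863 to 0.00788, none past the threshold.

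With the replicate number as a block (replicate block), 6 genes were higher and 3 lower, with 0 lower in the pentose phosphate branch and 3 lower in the glycogen and UDP-glucose branch. Over all genes the block left 1327 higher and 1123 lower, against 2188 and 1922 without it. H6PD, PYGL, PHKB and GYG1 then had adjusted p = 0.15, 0.058, 0.059 and 0.053 from limma. The deviations of same-numbered arrays had correlations of 0.12, -0.22 and -0.19, and IκBα SR replicate 2 was closest to vector replicate 3 (0.31). The deviations within a group sum to 0, which ties these correlations to one another. They therefore cannot decide whether arrays were paired by number, and whether arrays shared a batch was not tested.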
